A study of Mus musculus with 6 samples.

Results

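Heat shock proteins, DNAJ co-chaperones and chaperones of the endoplasmic reticulum (ER) were examined in mouse mammary tumour cells that had received a precursor of the microRNA miR-16. The members were taken by name, as every non-control probe of the array whose gene name begins as an Hsp, Dnaja, Dnajb, Dnajc or Pdia gene, or is Calr, Canx, Tra1, Hyou1, Herpud1, Sdf2l1, Creld2 or Xbp1, without Hspg2. This gave 144 probes of 75 genes, of 41174 probes of 28786 genes in all. By the compartment in which the protein works, 23 genes were ER members and 8 were mitochondrial members. The exception was Xbp1, a transcription factor counted as an ER member for its role in the ER stress response. The other 44 were counted as cytosolic or nuclear members. Of the 75 genes, 67 passed the filter on dim probes and were tested, namely all 23 ER members, 36 cytosolic and nuclear members and all 8 mitochondrial members. Dnajb3 and Hspb7 passed the filter only through the pre-miR-16 arrays and Hspa1l only through the pre-miR-Control arrays. The other 8 were not tested because no probe of theirs was well above background on all arrays of a group, and these were Dnajb13, Dnajb7, Dnajb8, Dnajc5b, Dnajc5g, Hspa12a, Hspa12b and Hspb3. The probe called Hspc171 in the files carries the accession of Tmem208, which is no heat shock protein but is a member by its name. It was counted as cytosolic and nuclear only because neither the ER nor the mitochondrial list holds it. Without it the median change of that class moved by less than 0.01, to -0.13 on the log2 scale. Counting it as an ER member was not tried.

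The samples were primary cultures of C4HD, a progestin-dependent mammary tumour of BALB/c females that is passaged in mice carrying medroxyprogesterone acetate. The epithelium-enriched cells had been plated after repeated sedimentation to remove fibroblasts. In the pre-miR-16 group, 3 cultures were transfected with 30 nM of the miR-16 precursor for 48 h, and in the pre-miR-Control group 3 cultures received 30 nM of a scrambled precursor for the same time. All cultures thus share the tumour line, the strain, the hormone treatment of the host and the transfection, and each was hybridised to 1 single-colour Agilent array as a separate biological replicate. The transfected precursor gives rise to the mature miR-16, which is shown here because it is the agent that separates the groups, with its seed (bases 2 to 8) in capitals.
mmu-miR-16-5p: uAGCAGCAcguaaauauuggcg

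Molecular chaperones bind unfolded proteins and help them reach their folded form. In the ER, Hspa5 (BiP) and Hsp90b1 (Grp94) hold new secretory and membrane proteins, protein disulfide isomerases pair their cysteines, and calreticulin and calnexin retain glycoproteins until they are folded. When unfolded proteins accumulate there, the sensors Ire1, Perk and Atf6 start the unfolded protein response, and Atf6 and spliced Xbp1 act on ER stress response elements in the promoters of ER chaperone genes. In the cytosol, heat shock factor 1 drives the inducible Hsp70, Hsp40 and small heat shock genes through heat shock elements, while the mitochondrion has its own Hsp60, Hsp10 and Hsp70.

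Levels are log2 signals relative to the 75th percentile of the same array, and a change is the difference of the 2 group means on that scale, pre-miR-16 minus pre-miR-Control, with its SE. Adjusted p-values are from limma with the Benjamini-Hochberg method over all 16702 genes. A gene was called at an adjusted p under 0.05. Levels of different genes come from different probes and are set against each other only as class medians on an array. The 75th percentile signal was 736 to 909 units on the pre-miR-16 arrays and 625 to 696 units on the pre-miR-Control arrays. Of the spots on an array, 57.8% to 60.4% were well above background in the pre-miR-16 group and 57.2% to 64.0% in the pre-miR-Control group, and 0 were saturated. The arrays lay on 3 slides. Slide 1 held replicate 1 of both groups, slide 2 held pre-miR-16 replicate 2 and pre-miR-Control replicates 2 and 3, and slide 3 held pre-miR-16 replicate 3 alone.

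The cultures differed strongly in markers of other cells, and these values stand beside every result below. All 8 fibroblast markers rose, with a summed log2 level of 7.86 to 8.22 in pre-miR-16 cultures, against 3.89 to 4.03 in pre-miR-Control cultures. Of 10 markers of macrophages and other leukocytes 9 rose, with a summed log2 level of 7.53 to 7.95 in pre-miR-16 cultures and of 2.90 to 3.57 in pre-miR-Control cultures. Of these, Ptprc (CD45) was well above background on 0 pre-miR-Control arrays. Luminal epithelial markers were high in both groups, as the label of an epithelial tumour calls for, but 7 of 8 fell, with a summed log2 level of 9.03 to 9.11 in pre-miR-16 cultures and of 9.81 to 10.0 in pre-miR-Control cultures. Of 5 myoepithelial markers 3 rose, the contractile genes Cnn1, Acta2 and Myh11, and 1 fell, the keratin Krt14 (by 1.96). The keratin Krt5 was not called. None of 4 endothelial markers and only Sdc1 of 4 plasma cell markers could be tested, and Sdc1 fell by 1.05 (limma adjusted p 0.00398). The part of these markers in the changes of the chaperone genes was not tested. In bulk RNA, fewer cells of a type and less RNA per cell cannot be told apart.

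In pre-miR-16 cultures the ER members Hspa5, Hsp90b1, Hyou1, Calr, Dnajc3, Xbp1 and 3 disulfide isomerases rose, while 13 of the 23 ER members, Canx and Dnajb11 among them, were not called. The cytosolic chaperones Hspa8, Hsp90aa1 and Hsp90ab1 were not called either, and some cytosolic J-domain proteins and Hspb1 fell. Of the 67 tested members, 16 rose and 12 fell, so 41.8% were called. Over all genes tested, 49.1% were called, 15.9% as higher and 33.2% as lower, so the share of members called was below that of all genes. Of 23 ER members 9 rose and 1 fell, of 36 cytosolic and nuclear members 6 rose and 8 fell, and of 8 mitochondrial members 1 rose and 3 fell. The median change was 0.27 for ER members, -0.14 for cytosolic and nuclear members and 0.00 for mitochondrial members, against -0.20 for all genes. Within slide 1 these medians were 0.33, -0.01 and 0.06, and within slide 2 they were 0.18, -0.25 and -0.24, in the same order.

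The scale between arrays decides how the falls are read. With the arrays scaled on 8 spike-in probes in place of the 75th percentile, every change moved up by 0.38, the median of all genes became 0.18, and 21.9% of all genes were called higher and 6.16% lower. Under that scaling 15 ER members rose and 0 fell, 7 cytosolic and nuclear members rose and 0 fell, and 2 mitochondrial members rose and 0 fell (limma; at an unadjusted p under 0.05 the count of falls was also 0). All 16 rises were kept and 0 of the 12 falls were. All falls given here, those of the cell markers above included, are therefore falls relative to the 75th percentile of the array. The called falls of luminal markers ran from 0.47 (Cldn4) to 1.19 (Krt8), beside this shift of 0.38. Relative to the median of all genes, which no scaling moves, the median change was 0.47 for ER members, 0.06 for cytosolic and nuclear members and 0.20 for mitochondrial members.

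**Figure D1:**
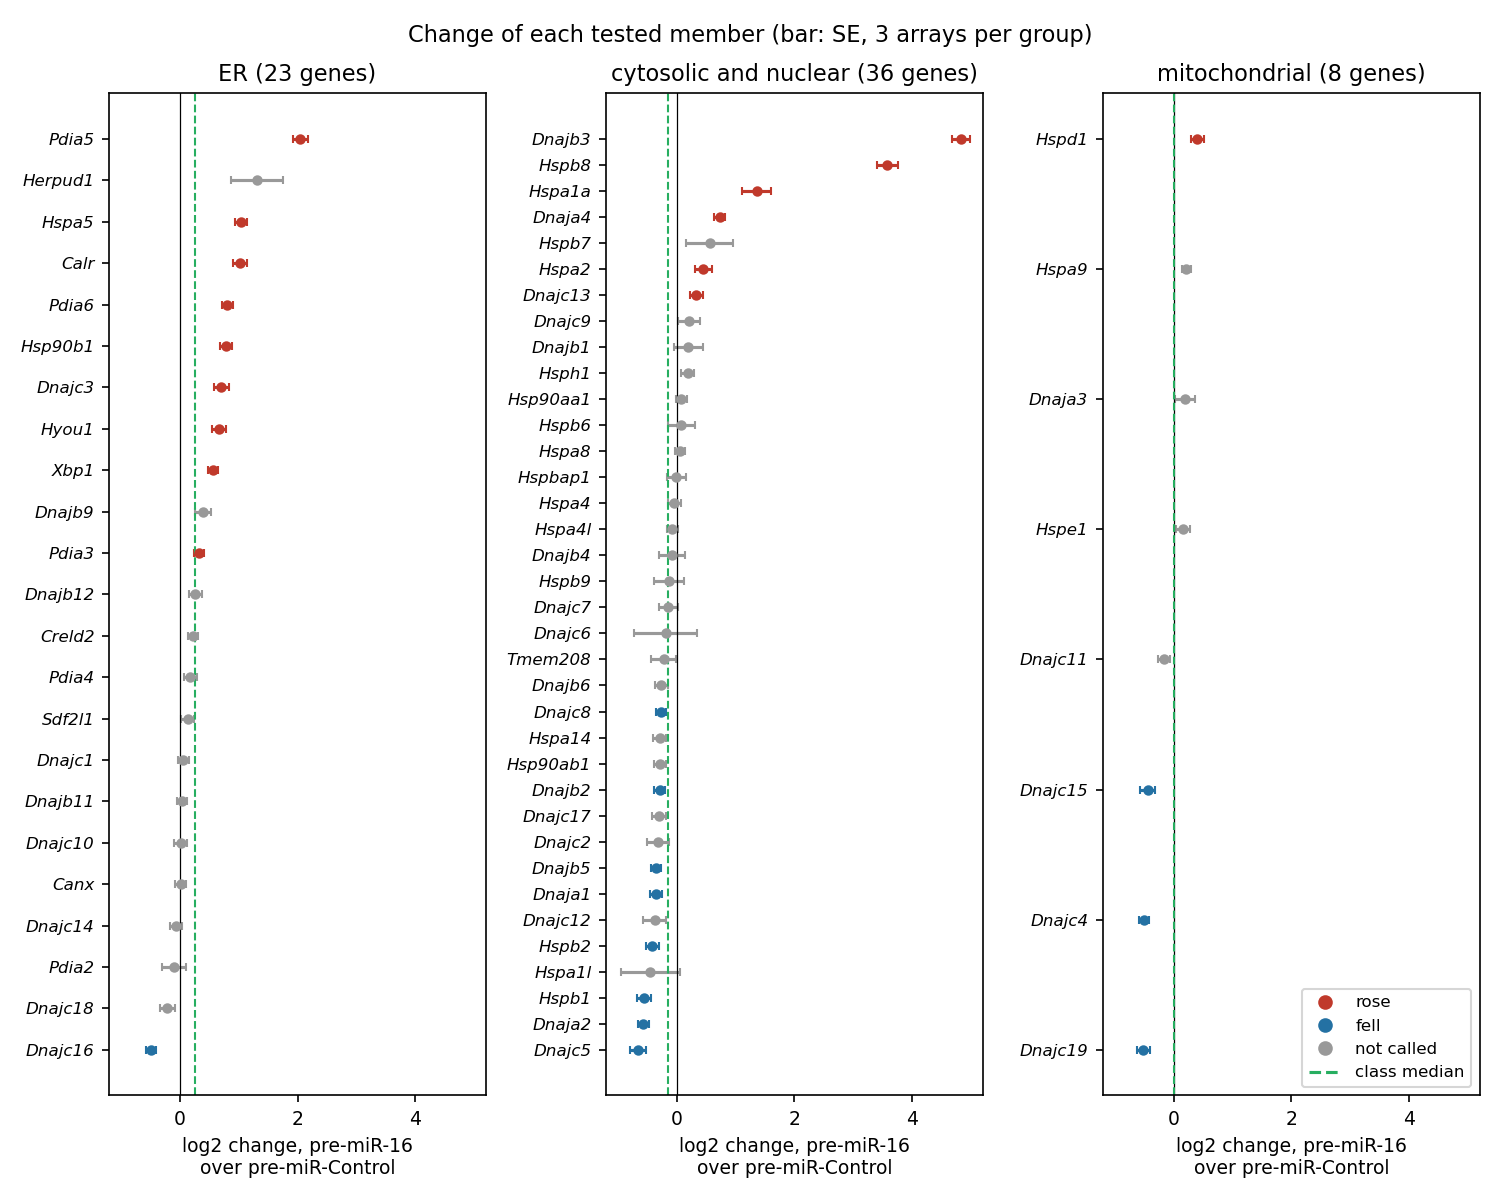
Log2 change (x axis, pre-miR-16 over pre-miR-Control) of each tested member with its SE, for 23 ER, 36 cytosolic and nuclear and 8 mitochondrial members. Red points rose, blue points fell and grey points were not called; the dashed lines are the class medians of 0.27, -0.14 and 0.00, the second of which becomes 0.25 under spike-in scaling.

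A measure that no scaling of an array can move is the difference between 2 class medians on the same array. The median level of ER members minus that of cytosolic and nuclear members was 0.20, 0.38 and 0.14 in the 3 pre-miR-16 cultures, against -0.17, -0.15 and -0.01 in the 3 pre-miR-Control cultures. Every pre-miR-16 culture lay above every pre-miR-Control culture, with means of 0.24 ± 0.13 and -0.11 ± 0.09 (SD, n = 3 each). The gene in the middle was not the same on all arrays. The ER median was the level of Dnajc1 or Dnajc10 in pre-miR-16 cultures and of Dnajb12 or Hyou1 in pre-miR-Control cultures. In pre-miR-16 replicate 2, which had the largest difference, the cytosolic and nuclear median lay between Dnajc9 and Hspb8. The ER median minus the mitochondrial median was -1.12, -0.85 and -1.10 in pre-miR-16 cultures and -1.60, -1.67 and -1.52 in pre-miR-Control cultures. These groups did not overlap either. The mitochondrial median of 8 genes rests on Hspe1, Dnajc15 and Dnajc19 in the middle of their order, of which Dnajc15 and Dnajc19 fell, and the median changes of the classes, 0.27 and 0.00, differed by less than the group means of this measure, -1.02 and -1.60. For both differences, with 3 arrays against 3 an exact two-sided test could not give a p under 0.1. The ER median change exceeded the cytosolic one by 0.40, and by 0.31 to 0.48 when any single array was left out.

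**Figure D2:**
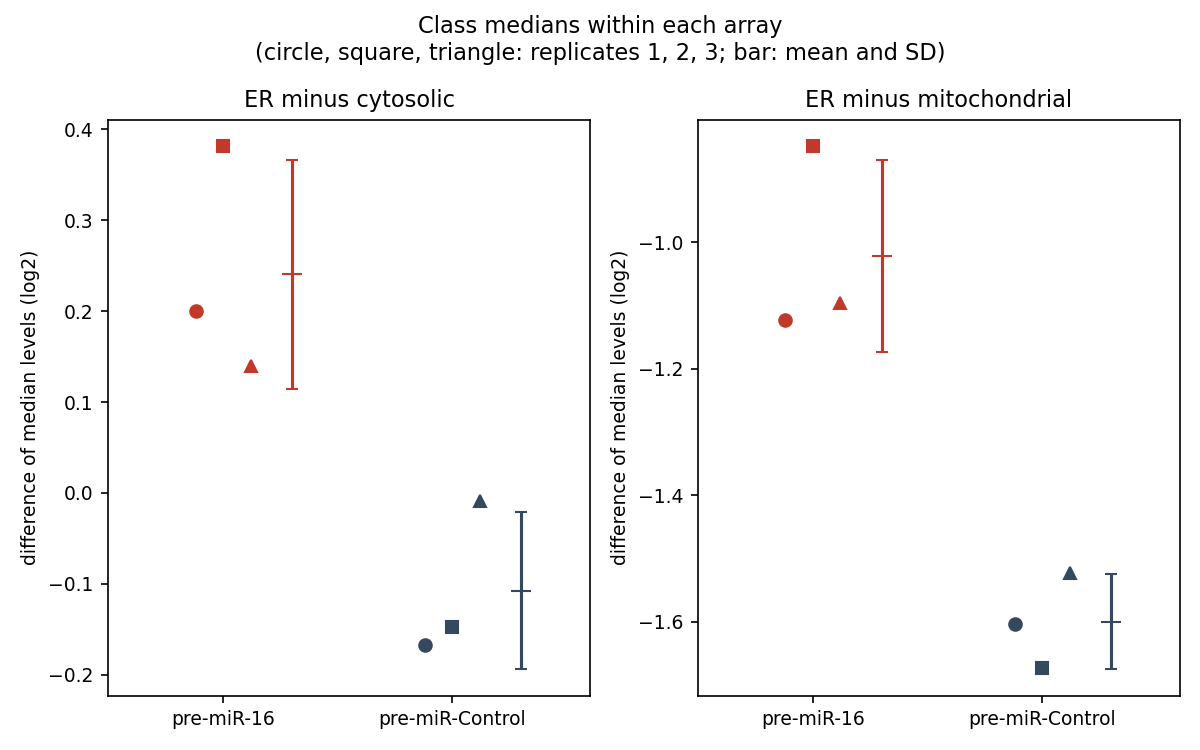
Difference between the median level of ER members and that of cytosolic and nuclear members (left) or mitochondrial members (right) on each array, in log2 units, with the group mean and SD beside the points. The pre-miR-16 arrays lie at 0.14 to 0.38 and the pre-miR-Control arrays at -0.17 to -0.01 on the left, and no groups overlap on either side.

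Hspa5 encodes BiP, the Hsp70 of the ER lumen and the best known target of the unfolded protein response. Its level was 5.80, 5.56 and 5.67 in pre-miR-16 cultures, against 4.71, 4.55 and 4.67 in pre-miR-Control cultures. The 3 pre-miR-16 values lay close together and well above all controls, and the change was 1.03 ± 0.10, or 2.05-fold (limma adjusted p 0.000643). Its change was 1.09 within slide 1 and 0.95 within slide 2. Hsp90b1, the ER member of the Hsp90 family, had 5.02, 5.08 and 4.92 in pre-miR-16 cultures and 4.38, 4.16 and 4.12 in pre-miR-Control cultures. It rose by 0.79 ± 0.11 (limma adjusted p 0.00202), and its other probe changed by 0.70 but was not called. Hyou1, the large Hsp70-like protein that exchanges nucleotide on BiP, had 3.125, 2.828 and 3.099 in pre-miR-16 cultures against 2.228, 2.394 and 2.409 in pre-miR-Control cultures. The groups did not overlap, and the rise of 0.67 ± 0.12 (limma adjusted p 0.00506) was 0.90 within slide 1 and 0.43 within slide 2.

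Of the lectin chaperones, calreticulin differed between the groups and calnexin did so by 1 of its 3 probes. Calr, the soluble lectin of the ER lumen, had 4.31, 4.46 and 4.61 in pre-miR-16 cultures and 3.58, 3.39 and 3.32 in pre-miR-Control cultures. All pre-miR-16 values were higher, with a rise of 1.03 ± 0.12 (limma adjusted p 0.00115) and of 1.19 by its second probe. Canx, the membrane-bound counterpart, had 5.22, 5.10 and 5.08 in pre-miR-16 cultures and 5.03, 5.15 and 5.18 in pre-miR-Control cultures. The groups overlapped (change 0.01 ± 0.09), while a dimmer Canx probe rose by 0.56 and the dimmest changed by 0.29.

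The protein disulfide isomerases, which form and rearrange disulfide bonds, gave 3 rises in 5 genes. Pdia5 had the largest change of any ER member. Its level was 1.27, 1.56 and 1.19 in pre-miR-16 cultures, against -0.71, -0.63 and -0.78 in pre-miR-Control cultures. The gap between the groups was many times the spread within them, and Pdia5 rose by 2.05 ± 0.12, or 4.13-fold (limma adjusted p 7.48e-05). Pdia6, which also binds the BiP system, had 5.18, 4.99 and 5.24 in pre-miR-16 cultures and 4.31, 4.33 and 4.35 in pre-miR-Control cultures. It rose by 0.81 ± 0.10 (limma adjusted p 0.00133). Pdia3 (ERp57), the isomerase that works with calreticulin and calnexin, rose by 0.33 ± 0.08 (limma adjusted p 0.0196), but not with the slide as a block (limma adjusted p 0.0827) nor without pre-miR-16 replicate 1 (0.0669) or any 1 of the pre-miR-Control replicates (0.0586 to 0.073). Pdia4 (0.18 ± 0.11) and Pdia2 (-0.09 ± 0.21) were not called, and in both the groups overlapped.

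**Figure D3:**
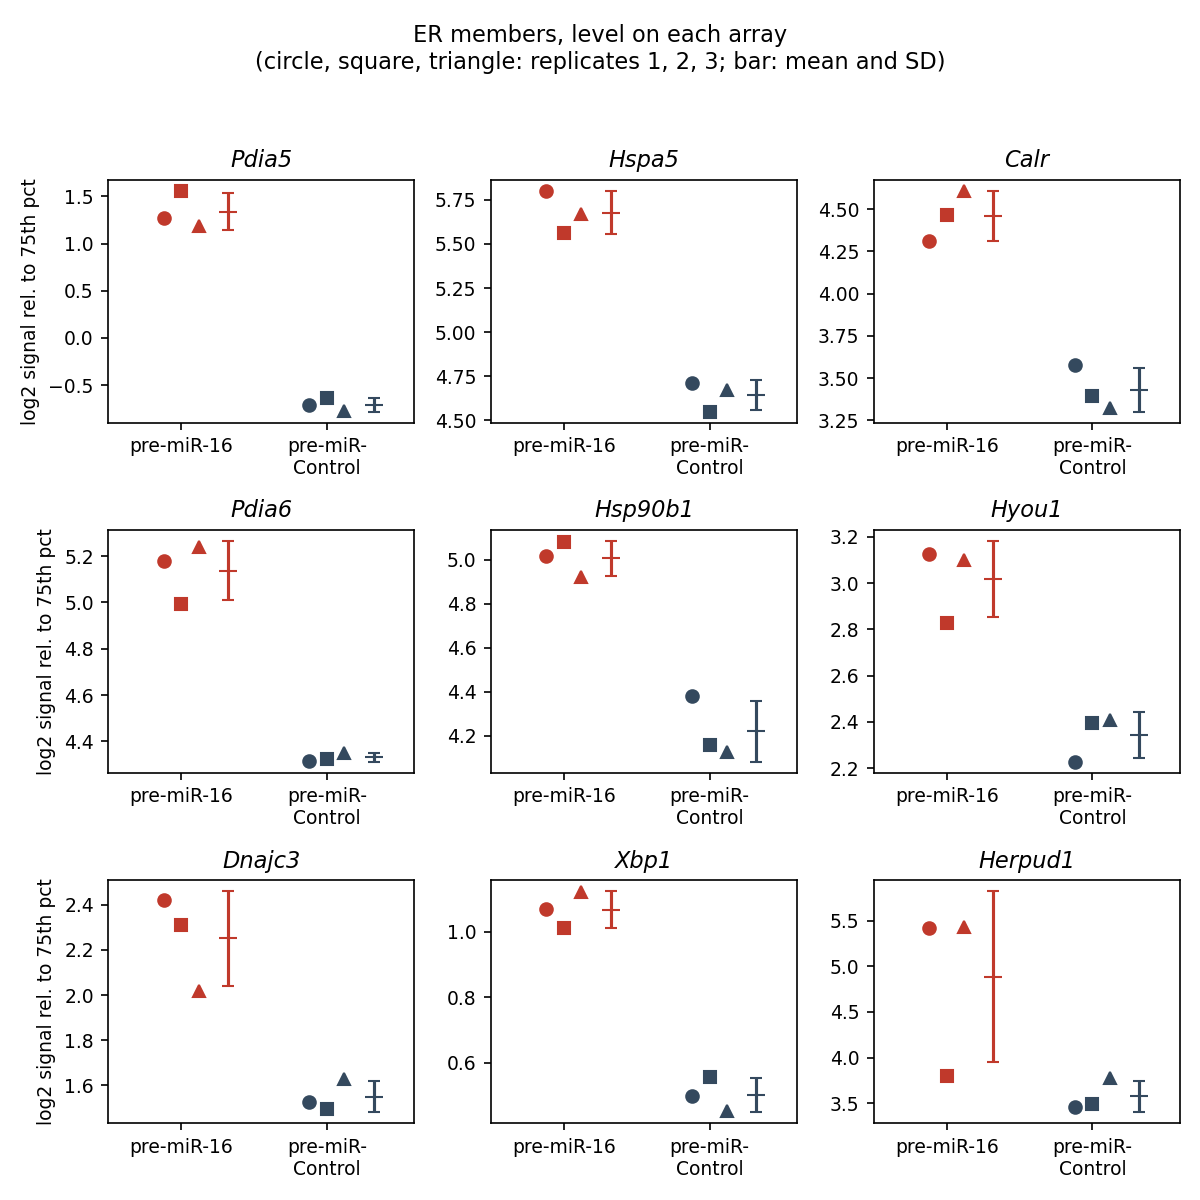
Log2 level relative to the 75th percentile of the array (y axes, which differ between panels) for 9 ER members in 3 pre-miR-16 and 3 pre-miR-Control cultures, with mean and SD. In all 9 panels the pre-miR-16 points lie above the pre-miR-Control points, and for Herpud1 pre-miR-16 replicate 2, at 3.80, lies just above the highest control, at 3.77.

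Several ER members belong to the sensing and signalling side of the response. Xbp1, whose spliced product is a transcription factor of ER chaperone and degradation genes, had 1.07, 1.01 and 1.12 in pre-miR-16 cultures against 0.50, 0.56 and 0.45 in pre-miR-Control cultures. The groups lay apart by several times their spread, and the rise was 0.57 ± 0.09 (limma adjusted p 0.00292); splicing of Xbp1 was not measured. Dnajc3 (p58IPK), a J-domain protein that restrains the kinase Perk and assists BiP, rose by 0.70 ± 0.13 (limma adjusted p 0.00589), and 2 of its 4 probes were called as higher. Dnajb9 (ERdj4), which promotes degradation of misfolded proteins, had 0.84, 0.54 and 0.88 in pre-miR-16 cultures and 0.15, 0.47 and 0.45 in pre-miR-Control cultures. All pre-miR-16 values were higher, yet the change of 0.40 ± 0.14 was not called (limma adjusted p 0.0604), whereas its other 2 probes rose by 0.79 and 0.40. Without pre-miR-16 replicate 2 its change passed the threshold (limma adjusted p 0.023).

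Herpud1, a membrane protein of ER-associated degradation, differed widely among the pre-miR-16 cultures. Its level was 5.42, 3.80 and 5.43 in pre-miR-16 cultures, against 3.46, 3.49 and 3.77 in pre-miR-Control cultures. Replicates 1 and 3 were far above the controls and replicate 2 only just. The change of 1.31 ± 0.45 was not called (limma adjusted p 0.0513), was 1.96 within slide 1 and 0.17 within slide 2, and became 1.85 without pre-miR-16 replicate 2 (limma adjusted p 0.000365). Dnajb12 (0.27 ± 0.10) and Creld2 (0.22 ± 0.09) were not called, although every pre-miR-16 value of these probes was higher. A dimmer Dnajb12 probe changed the other way, by -0.40, and was not called. Creld2 passed the threshold without pre-miR-16 replicate 2 (limma adjusted p 0.0446). Sdf2l1 and Dnajb11 (ERdj3), which form a complex with BiP in the lumen, changed by 0.14 ± 0.11 and 0.04 ± 0.09 with overlapping groups. Dnajc1, Dnajc10, Dnajc14 and Dnajc18 changed by -0.21 to 0.06 and were not called, although a dimmer Dnajc1 probe rose by 0.68. The only ER member that fell was Dnajc16, by 0.49 ± 0.08 (limma adjusted p 0.00469). Its other 2 kept probes changed by -0.16 and -0.03 and were not called, and the gene was not called with normexp background correction (-0.13), the series matrix values (-0.13) or spike-in scaling (-0.10). With normexp and the series matrix the brightest probe was picked anew. Those 2 values can thus come from another Dnajc16 probe and are no separate check. In 13 of 23 ER members all pre-miR-16 values were higher and in 1 all were lower; over all genes tested, 18.9% had all pre-miR-16 values higher and 42.5% had all lower.

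The promoters of the members are shown where they bear on this pattern. RefSeq windows from 250 bases before to 50 bases after the start (GRCm38.p6) were at hand for 62 of the 75 members, and the ER stress response element, CCAAT and CCACG with 9 bases of any kind between them, was searched on both strands. It stood in 7 of 21 ER members with a window (33.3%), in 0 of 35 cytosolic and nuclear members and in 0 of 6 mitochondrial members, and in 37 of 27025 genes of the mouse table (0.137%). Of the 8 ER members that rose and have a window 5 held it, and of the 13 that did not rise 2 held it. The element was first described in ER chaperone genes, so its presence among them is background, and a match is a description of letters and not a binding site. The sites are printed in the direction of the motif with its fixed letters in capitals, first for the members that rose and then for Canx and Creld2, which were not called.
Hspa5, chr2:34772025-34772043, plus strand: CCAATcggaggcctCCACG
Hsp90b1, chr10:86705638-86705656, minus strand: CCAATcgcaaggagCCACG
Hsp90b1, chr10:86705533-86705551, plus strand: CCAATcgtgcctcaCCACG
Calr, chr8:84847075-84847093, plus strand: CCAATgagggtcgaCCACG
Pdia6, chr12:17266491-17266509, plus strand: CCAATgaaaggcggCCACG
Dnajc3, chr14:118937827-118937845, plus strand: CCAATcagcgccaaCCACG
Canx, chr11:50325800-50325818, minus strand: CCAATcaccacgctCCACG
Creld2, chr15:88819520-88819538, minus strand: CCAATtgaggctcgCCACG

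The sites began between 212 and 65 bases before the start of their gene. Those of Calr and Creld2 and the second of Hsp90b1 ran opposite to the gene. The windows of Hspa5, with 1 site, and of Hsp90b1, with 2, are given whole as the 2 ER chaperones that define the compartment's Hsp70 and Hsp90, in the direction of the gene and with the 19 bases of each site in capitals, which read as the reverse complement where the site runs opposite.
Hspa5, chr2:34771840-34772139, plus strand: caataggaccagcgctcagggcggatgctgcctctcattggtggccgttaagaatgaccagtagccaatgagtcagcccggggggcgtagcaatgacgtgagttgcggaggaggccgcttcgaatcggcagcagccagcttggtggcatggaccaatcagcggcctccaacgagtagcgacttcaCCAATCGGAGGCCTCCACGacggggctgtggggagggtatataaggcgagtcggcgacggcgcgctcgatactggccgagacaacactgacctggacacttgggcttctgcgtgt
Hsp90b1, chr10:86705395-86705694, minus strand: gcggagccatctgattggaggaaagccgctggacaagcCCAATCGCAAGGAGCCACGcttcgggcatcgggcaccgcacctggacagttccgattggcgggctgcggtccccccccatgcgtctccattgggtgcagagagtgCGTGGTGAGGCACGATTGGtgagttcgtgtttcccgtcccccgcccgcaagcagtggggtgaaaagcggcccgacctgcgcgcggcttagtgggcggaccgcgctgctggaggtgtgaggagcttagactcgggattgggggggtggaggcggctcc

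The other ER members that rose and have a window, Pdia3, Pdia5 and Xbp1, held no match to these letters, nor did Herpud1. The shorter unfolded protein response element TGACGTGG was in no member's window and in 0.676% of all 32851 windows. Where the sites were and how the genes moved did not go one to one: Canx holds a site and its brightest probe changed by 0.01, and Pdia5 holds none and rose most.

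Other genes of ER stress and ER-associated degradation, taken as a list of 30 with results of these data known, gave 10 rises and 3 falls with a median change of 0.19. Over all genes tested, 15.9% were called higher and 33.2% lower, with a median change of -0.20. The falls were those of Erp29, Erp44 and Atf3. Serpinh1 (Hsp47), the chaperone of procollagen, had 6.10, 6.19 and 5.75 in pre-miR-16 cultures, against 4.60, 4.79 and 4.54 in pre-miR-Control cultures. It rose by 1.37 ± 0.15 (limma adjusted p 0.00083), in the same cultures in which the 8 fibroblast markers rose. Ero1a, the oxidase that recharges disulfide isomerases, rose by 1.02 ± 0.11, P4hb, the founding disulfide isomerase and a subunit of prolyl hydroxylase, by 0.59 ± 0.08, and Ppp1r15a (Gadd34) by 0.60 ± 0.09. Ddit3 (CHOP) rose by 1.15 ± 0.22 (limma adjusted p 0.00689), and its groups did not overlap. The other rises were those of Manf (0.50), Sel1l (0.46), Syvn1 (0.39), Derl1 (0.37) and Derl3. The change of Derl3 (1.39) is not exact, as it was well above background on only 1 pre-miR-Control array. Of the sensors, Atf6 (0.17), Ern1 encoding Ire1 (0.42) and Eif2ak3 encoding Perk (-0.13) were not called.

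Among the cytosolic members, Hspa1a and Hspb8 rose strongly. Dnajb1 and Hsp90aa1, which are inducible too, were not called, nor were the constitutive Hspa8 and Hsp90ab1, and the small heat shock gene Hspb1 fell. Hspa1a, the classical stress-inducible Hsp70, had 0.90, 0.16 and 0.91 in pre-miR-16 cultures and -0.46, -0.96 and -0.68 in pre-miR-Control cultures. The groups did not overlap, with pre-miR-16 replicate 2 the lowest of its group, and the rise was 1.36 ± 0.24, or 2.57-fold (limma adjusted p 0.00548). The near-identical copy Hspa1b has no probe of that name here, and probes in the coding region could read both. All 4 Hspa1a probes were called as higher, and the 2 that were well above background on all 6 arrays rose by 1.36 and 1.19. The other 2 overlap each other at the gene's 3′ end (chr17:33066911-33066970 and chr17:33066941-33067000, mm7, minus strand), and their pre-miR-Control signals were mostly too dim to give an exact change. The first was well above background on no pre-miR-Control array, so its rise is given as at least 9.75-fold on this scale. The second was well above background on 1 of 3, so it is not set against the measured probes. Such a bound compares the pre-miR-16 mean with the mean of, per pre-miR-Control array, the higher of the dimmest well measured signal and the probe's own.

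Hspb8, a small heat shock protein that works with Bag3 in the disposal of aggregates, had 1.82, 2.21 and 1.55 in pre-miR-16 cultures, against -1.57, -1.76 and -1.83 in pre-miR-Control cultures. Its groups lay furthest apart of all members well above background on all 6 arrays, with a rise of 3.58 ± 0.18, or 11.9-fold (limma adjusted p 3.71e-05), and 3.388 and 4.002 within slides 1 and 2. Bag3 itself rose by 0.40 ± 0.12 (limma adjusted p 0.0345). Dnajb3, a J-domain protein known in mice from the testis, had -2.69, -2.46 and -3.03 in pre-miR-16 cultures and -7.61, -7.44 and -7.60 in pre-miR-Control cultures. It was well above background on all pre-miR-16 arrays and on no pre-miR-Control array, so it entered the test, and the 6 cytosolic rises, through the group in which it is high. On this scale it was at least 6.08-fold higher in pre-miR-16 cultures (limma adjusted p 1.17e-05, which is no separate support), but its change was only 1.27 with normexp background correction and 1.41 in the series matrix, both smaller than that bound. The normexp setting adds an offset of 50 to every signal, which narrows the change of a dim probe. The series matrix holds no log2 value under 5.65. Dnaja4, a membrane-linked Hsp40, rose by 0.73 ± 0.09 by its brightest probe and by 0.49 by the other. Hspa2, an Hsp70 best known from the testis, rose by 0.45 ± 0.15 (limma adjusted p 0.0453), and Dnajc13, an endosomal J-domain protein, by 0.33 ± 0.11 (limma adjusted p 0.0446), both near the threshold, and Dnajc13 was not called with the slide as a block (limma adjusted p 0.0712).

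Hspa8, Hsp90aa1 and Hsp90ab1, the abundant cytosolic Hsp70 and Hsp90 genes, were not called by their brightest probes. Hspa8 (Hsc70), the housekeeping Hsp70, had 6.60, 6.57 and 6.49 in pre-miR-16 cultures and 6.45, 6.51 and 6.53 in pre-miR-Control cultures. The groups overlapped (0.06 ± 0.08), and the second probe rose by 0.28. The files place both probes on chr5, whereas RefSeq has the gene on chromosome 9. Hsp90aa1, the inducible cytosolic Hsp90, changed by 0.08 ± 0.09 with overlapping groups. Hsp90ab1, its constitutive partner, had 7.183, 7.202 and 7.004 in pre-miR-16 cultures and 7.504, 7.389 and 7.356 in pre-miR-Control cultures. All pre-miR-16 values were lower, but the change of -0.29 ± 0.10 was not called (limma adjusted p 0.0535; 0.0417 without pre-miR-16 replicate 2) and its sign turned under spike-in scaling (0.10). Hsph1 (Hsp110) changed by 0.19 ± 0.11 and Hspa4 by -0.04 ± 0.11, neither of them called, and the 4 Hspa4 probes ranged from -1.01 to 0.59.

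Dnajb1, the main inducible Hsp40, varied with 1 culture, having 5.89, 5.02 and 5.96 in pre-miR-16 cultures and 5.39, 5.46 and 5.41 in pre-miR-Control cultures. Replicates 1 and 3 were above all controls and replicate 2 below them, so the change of 0.20 ± 0.25 was not called, and it became 0.50 without pre-miR-16 replicate 2 (limma adjusted p 0.00482). Over the 67 members, pre-miR-16 replicate 2 lay more than 0.5 log2 units from the mean of the other 2 arrays of its group in 11 genes, 10 of them lower and Hspb8 higher. For the other 5 arrays that number was 2 to 4. The lower genes included Dnajc6 (-1.95 from the mean of the others), Herpud1 (-1.62), Dnajb1 (-0.90), Hspa1a (-0.75) and Dnajb4 (-0.68).

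**Figure D4:**
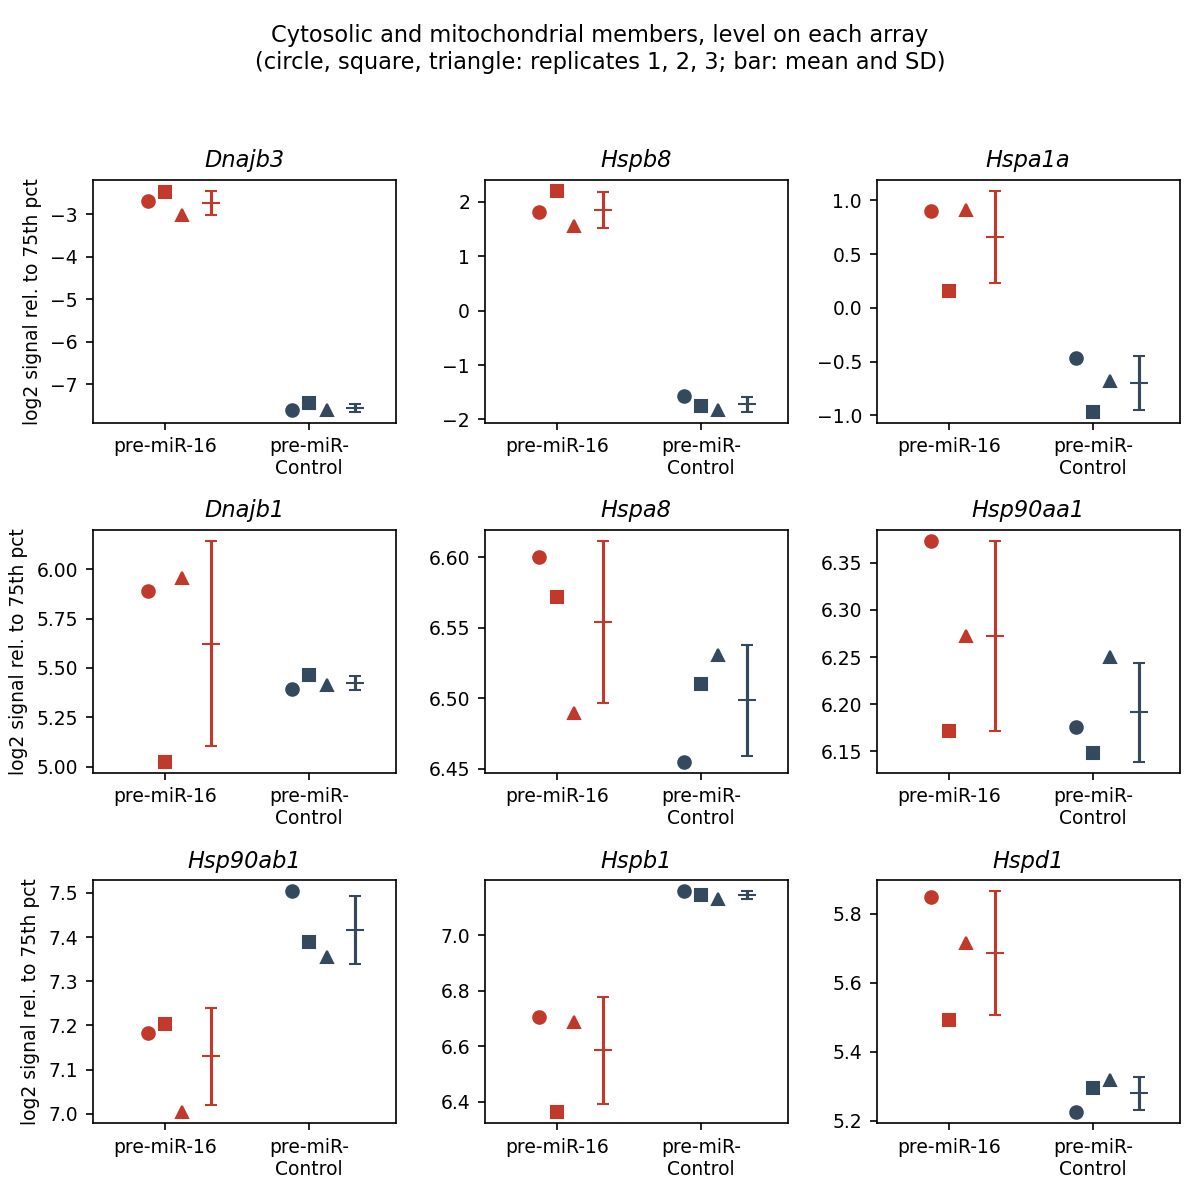
Log2 level relative to the 75th percentile of the array (y axes, which differ between panels) for 8 cytosolic members and mitochondrial Hspd1 in 3 pre-miR-16 and 3 pre-miR-Control cultures, with mean and SD. Dnajb3, Hspb8, Hspa1a and Hspd1 lie higher in all pre-miR-16 cultures, Hsp90ab1 and Hspb1 lie lower (the sign of Hsp90ab1 turns under spike-in scaling), and the square of pre-miR-16 replicate 2 stands below the others for Dnajb1, at 5.02.

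The 8 cytosolic falls were of modest size, between 0.26 and 0.66, and none was kept under spike-in scaling, where Dnajc8, Dnajb2, Dnajb5 and Dnaja1 changed by 0.12, 0.09, 0.04 and 0.04. Dnajc5, the cysteine string protein of secretory vesicles, had 3.22, 3.39 and 2.96 in pre-miR-16 cultures, against 3.97, 3.77 and 3.82 in pre-miR-Control cultures. The groups did not overlap and it fell by 0.66 ± 0.14 (limma adjusted p 0.00898), with all 3 probes called as lower. Dnaja2, an Hsp40 partner of Hspa8, fell by 0.57 ± 0.10 (limma adjusted p 0.00444). Its relative Dnaja1 fell by 0.35 ± 0.10 (limma adjusted p 0.0282), and all 3 of its probes were called as lower. Hspb1 (Hsp25), a small heat shock protein that also binds actin, had 6.71, 6.36 and 6.69 in pre-miR-16 cultures and 7.16, 7.14 and 7.13 in pre-miR-Control cultures. All pre-miR-16 values were lower, with a fall of 0.56 ± 0.12 (limma adjusted p 0.01), in the same cultures in which 7 of 8 luminal epithelial markers fell. The remaining falls, those of Hspb2, Dnajb5, Dnajb2 and Dnajc8, were not called with the slide as a block (limma adjusted p 0.0787 to 0.103), nor was that of Dnaja1 (0.0677).

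The other cytosolic and nuclear members were not called. Hspa14, a ribosome-linked Hsp70 relative (-0.29), and Dnajc17, a nuclear J-domain protein (-0.31), had all pre-miR-16 values lower. In Dnajb6, Hspa4l, Hspbap1, Dnajc2, Dnajc7, Dnajc9, Dnajc12 and Tmem208 the groups overlapped, with changes of -0.37 to 0.21, although the other 2 probes of Dnajb6 were called as lower (-0.45 and -0.54). The remaining ones, Hspb6, Hspb7, Hspb9, Hspa1l, Dnajb4 and Dnajc6, also overlapped, with wider SE of 0.23 to 0.53. In 6 of the 36 genes all pre-miR-16 values were higher and in 11 all were lower, neither of them a larger share than the 18.9% and 42.5% of all genes tested.

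A list of 27 cytosolic heat shock genes was again taken with earlier results known and holds Hsph1, itself a member. Of its 26 tested genes 5 rose and 7 fell, with a median change of -0.01, beside 15.9% called higher and 33.2% called lower over all genes tested. Cryab, the small heat shock protein alpha-B crystallin, rose by 1.09 ± 0.10, and Cct8, a subunit of the TRiC chaperonin, by 0.52 ± 0.08. Another TRiC subunit, Cct6a, fell by 0.59 ± 0.11, and Fkbp4, an Hsp90 co-chaperone of steroid receptors, fell by 0.48 ± 0.09. Hsf1, the factor behind the heat shock response, changed by -0.05 ± 0.10 with overlapping groups.

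Mitochondrial members showed both directions. Hspd1 (Hsp60), the chaperonin of the matrix, had 5.85, 5.49 and 5.72 in pre-miR-16 cultures and 5.22, 5.30 and 5.32 in pre-miR-Control cultures. The groups did not overlap and it rose by 0.41 ± 0.12 (limma adjusted p 0.0285), but not with the slide as a block (limma adjusted p 0.117), and its second probe rose by 0.75. Hspe1 (Hsp10), the lid of the same chaperonin, changed by 0.16 ± 0.12 with overlapping groups. Hspa9 (mortalin), the matrix Hsp70, changed by 0.22 ± 0.08 (limma adjusted p 0.0637, not called; 0.0376 without pre-miR-16 replicate 2) by its brightest probe while a dimmer probe rose by 0.72. Dnaja3, the co-chaperone of mortalin, changed by 0.19 ± 0.17, and Dnajc11 by -0.16 ± 0.09, neither of them called.

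The mitochondrial J-domain proteins Dnajc19, Dnajc4 and Dnajc15 fell, and none of these falls was kept under spike-in scaling. Dnajc19, a part of the import motor at the inner membrane, had 3.88, 3.65 and 3.85 in pre-miR-16 cultures, against 4.28, 4.44 and 4.20 in pre-miR-Control cultures. It fell by 0.51 ± 0.11 (limma adjusted p 0.011), and all 3 of its probes were called as lower. Dnajc4 fell by 0.50 ± 0.09 (limma adjusted p 0.00505) and Dnajc15, another part of the import machinery, by 0.44 ± 0.12 (limma adjusted p 0.0271). The fall of Dnajc15 was not called with the slide as a block (limma adjusted p 0.0651). Of 10 mitochondrial partners 0 rose and 3 fell (limma, median change -0.01), a share of falls near the 33.2% of all genes tested. Grpel2, a nucleotide exchange factor of mortalin, fell by 0.98 ± 0.09. The iron-sulfur co-chaperone Hscb fell by 0.52 ± 0.10 and the protease subunit Clpp by 0.34 ± 0.10. At an unadjusted limma p under 0.05 the count of rises was also 0.

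Heat shock elements were searched in the same windows. The element was read as 3 alternating units of GAA and TTC, in either order, with 2 bases of any kind between neighbours, on both strands. It stood in the windows of Dnajb6, Hsph1, Hspd1 and Hspe1, which is 4 of 62 members (6.45%), and in 179 of 27025 genes of the mouse table (0.662%). Of these 4 genes only Hspd1 rose. The Hsph1 site began 15 or 36 bases after the start, depending on the window. Windows were at hand for 35 of the 44 cytosolic and nuclear members, so a member not named here may lack a window and not a site. Only exact matches were counted, and a match is a description of letters and not a binding site. Hspd1 and Hspe1 lie head to head on chromosome 1 and share the stretch between them, so that the same 2 overlapping sites count for both genes. They are shown in the direction of the motif with its fixed letters in capitals.
Hspd1 and Hspe1, chr1:55088064-55088076, plus strand: GAAccTTCcgGAA
Hspd1 and Hspe1, chr1:55088059-55088071, minus strand: GAAggTTCtaGAA

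Where a gene had several probes, these mostly moved the same way. Of 35 members with more than 1 kept probe, 27 had all probes of the same sign. Pdia6 was the exception among the ER members that rose, with 3 probes that rose by 0.81, 1.10 and 1.57 and a dim one, annotated to another transcript record, that changed by -0.24 and was not called. For Calr the 2 probes gave 1.03 and 1.19, and for Hspd1 they gave 0.41 and 0.75. The brightest probe, which stands for the gene, thus gave the smaller change in both genes. For Dnajc3, Hsp90b1 and Dnaja4 it gave the largest change of the gene's kept probes (0.70, 0.79 and 0.73).

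**Figure D5:**
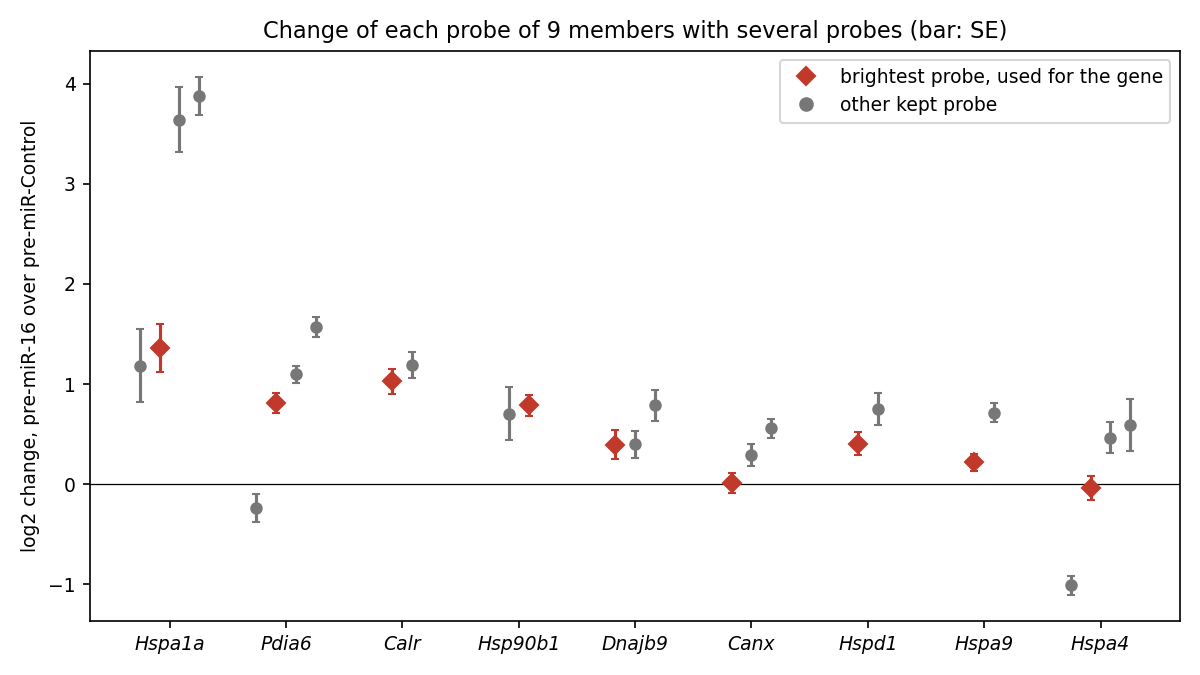
Log2 change (pre-miR-16 over pre-miR-Control) with SE of each kept probe of 9 members, with the brightest probe of each gene as a red diamond. The Hspa1a probes measured on all 6 arrays lie at 1.19 and 1.36; the other 2 Hspa1a points, at 3.64 and 3.88, rest on pre-miR-Control signals well above background on 1 and 0 of 3 arrays and give no exact change. Of the rest, 3 of 4 Pdia6 probes lie at 0.81 to 1.57, and the Hspa4 probes lie on both sides of 0.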

How the data were processed

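RNA of 6 cultures was measured on 1 single-colour array each, and groups were taken from the sample titles. The deposited scanner files give an intensity per spot after background subtraction within the array by Agilent Feature Extraction 9.5.3.1, per the file headers, with no scaling between arrays. The deposited series matrix holds log2 values whose scaling no label states (column medians 6.79 to 6.81), and it served as an alternative. The matrix columns for pre-miR-16 replicate 1 and replicate 2 matched the other's scanner values better (Spearman 0.946 and 0.944 against the own array, 0.965 and 0.970 against the other one), which leaves the comparison of groups unaffected. Columns without a sample numbered 0.

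Control spots and outlier spots (74 to 113 per array) were left out, the log2 intensity of spots of a probe was averaged, and the 75th percentile over all 43379 non-control spots was subtracted from each array. Probes were kept if a share of 0.5 or more of their spots was well above background on every array of either group. The brightest kept probe stood for its gene. Probes were named through RefSeq by accession (22951), by symbol (6659) or by the name in the file (11564). Coordinates of probes are those of the files (mm7), and promoter windows and the miRNA sequence are from RefSeq (GRCm38.p6). The 3 arrays per group limit the precision.

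Groups were compared with lmFit and eBayes of limma 3.58.1 in R 4.3.3, with version 1.17.8 of data.table, on 16702 genes with Benjamini-Hochberg adjustment. The code was tested on simulated data. The members, compartments, partner lists and marker lists were chosen with earlier results of these data known, so counts over them are descriptions without a test. Genes named are a core list of chaperones, and the 5 called members with the largest rise and the 5 with the largest fall. Of each partner list up to 4 genes with the smallest p are named. Beyond these, the other called ER stress partners, the sensors, Bag3 and Hsf1 are named, and other members to account for all of them. Replicate numbers did not pair the samples (correlation of the deviations -0.09, -0.03 and -0.00).

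Alternatives were a stricter threshold, quantile normalization, median centring, spike-in scaling, normexp background correction (offset 50), the series matrix, no or a stricter filter on dim probes, the mean of a gene's probes, every probe on its own, outlier spots kept, eBayes with trend and robust, replicate number or slide as a block, and each array left out in turn. Chosen after seeing the data were the 75th percentile over probes and the cytosolic members without Tmem208.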

Additional observations from a re-analysis of the deposited data

How the results depend on the processing

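The 16 rises numbered 12 to 22 when 1 array was left out (22 without pre-miR-16 replicate 2), 13 with the slide or the replicate number as a block, 19 with normexp, 21 in the series matrix, 23 with quantile normalization and 24 with spike-in scaling. The 12 falls numbered 4 at an adjusted p under 0.01, 6 with median centring, 6 without a filter on dim probes, 7 with the slide as a block, 0 with spike-in scaling (limma; also 0 at an unadjusted p under 0.05), and 6 to 12 when 1 array was left out (6 without pre-miR-Control replicate 3, 7 without replicate 2). With every probe tested on its own, 32 probes rose and 20 fell. With the replicate block 13 members rose and 6 fell, 12 and 6 of them among the main calls; the numbers do not pair the samples, and the class medians did not move. The median change of ER members was 0.37 with quantile normalization, 0.23 with median centring, 0.65 with spike-in scaling, 0.30 with normexp, 0.34 in the series matrix, 0.30 with the 75th percentile over probes (chosen after seeing the data), and 0.21 to 0.33 with 1 array left out. That of cytosolic and nuclear members was 0.25 with spike-in scaling and -0.19 to 0.012 with 1 array left out, the positive value coming without pre-miR-16 replicate 2. That of mitochondrial members, near 0, was -0.036 with median centring, -0.064 with the slide as a block, 0.38 with spike-in scaling and -0.066 to 0.064 with 1 array left out. Dnaja1 changed by 0.036 with spike-in scaling (limma adjusted p 0.904), and the falls of Dnajc8, Dnajb2 and Dnajb5 turned sign likewise. The ER minus cytosolic difference of 0.40 was 0.31 to 0.48 under all alternatives. Without pre-miR-16 replicate 2, 13 ER members rose, and Herpud1, Creld2, Dnajb9, Hsp90ab1, Dnajb1 and Hspa9 passed the threshold (limma adjusted p 0.000365 to 0.0446). Cytosolic and nuclear falls numbered 5 without pre-miR-16 replicate 1 or 3, 4 without pre-miR-Control replicate 2 and 3 without pre-miR-Control replicate 3. Pdia3 lost its call without pre-miR-16 replicate 1, Dnaja1 and Dnajc15 without pre-miR-16 replicate 3, Hspd1 without either of these, and all 4 without any 1 of the pre-miR-Control replicates (limma adjusted p 0.0531 to 0.0963). Apart from spike-in scaling, whose shift is its own construction, the cause of these moves was not tested. Of the tested members Dnajb3, Hspb7 and Hspa1l were not well above background on all 6 arrays, so signal over background limits their values.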

Other observations

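By protein family, the Hsp70 and Hsp110 genes gave 4 rises and 0 falls (limma) among 11 tested, with a median change of 0.19, the rises being Hspa5, Hyou1, Hspa1a and Hspa2; over all genes 15.9% were called higher and 33.2% lower. The Dnajc genes gave 2 rises and 6 falls among 19 tested, with a median of -0.21, and both the share of falls and the median lay near those of all genes (33.2% and -0.20); the rises were ER Dnajc3 and endosomal Dnajc13. Of 6 small heat shock genes tested Hspb8 rose, Hspb1 and Hspb2 fell, and Hspb6, Hspb7 and Hspb9 were not called. Of 4 Dnaja genes Dnaja4 rose, Dnaja1 and Dnaja2 fell, and Dnaja3 was not called, so paralogs of a family lay on both sides in these arrays. The falls of this paragraph were called with the 75th percentile and not with spike-in scaling.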
